A study of Mus musculus with 6 samples.

Results

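The 44 genes described here encode the ligands, receptors, latency proteins, antagonists, Smad proteins, intracellular inhibitors and some standard targets of TGF-beta, activin and BMP signalling. They are taken by gene symbol from a list of the pathway, drawn up with earlier results of these data known, and all 44 were matched among the 49585 gene identifiers of the count tables. RNA was sequenced from tumoroids, cultures of mouse intestinal adenoma cells (strain C57BL/6) grown in Matrigel. Cultures of 2 genotypes were compared, with 3 libraries each. The knock-out (KO) cultures were labelled APC min/+, Villin-Cre, IKKa FL/FL, and the wild-type (WT) cultures APC min/+, Villin-Cre, IKKa +/+. Both genotypes thus carried the Min mutation in 1 Apc allele and Cre recombinase under the Villin promoter, which is active in intestinal epithelium. Floxed alleles of Chuk, the gene of the kinase IKKa, were carried by the KO cultures alone, and the labels give no age or sex. All cultures were kept in a medium with 100 ng/ml noggin, a secreted protein that binds BMPs and keeps them from their receptors, and with R-spondin (100 ng/ml), EGF (50 ng/ml), basic FGF (20 ng/ml) and a ROCK inhibitor (140 nM). Replicates are called biological in the labels, but no separate mice or cultures are named, so p-values reflect only how far these libraries varied, part of which may be technical.

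TGF-beta, activin and BMP are secreted dimers that bind pairs of type I and type II serine/threonine kinase receptors. Activated TGF-beta and activin receptors phosphorylate Smad2 and Smad3, and BMP receptors phosphorylate Smad1, Smad5 and Smad9, each of which then enters the nucleus with Smad4. TGF-beta is secreted in a latent complex and must be released from it. In the intestine, TGF-beta restrains epithelial growth, and a BMP gradient rises from the crypt base towards the villus, where it favours differentiation. Smad6, Smad7, Ski, Skil, Smurf1 and Pmepa1 act as brakes, and several of them are themselves induced by the signal.

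Library depth was 26785922 to 31875723 counts in KO tumoroids and 20749747 to 29752507 counts in WT tumoroids. Chuk was counted at 28.9, 24.4 and 34.9 CPM in KO tumoroids and at 101, 106 and 95.8 CPM in WT tumoroids (CPM, counts scaled to a common library size by TMM), and a gene-level count does not separate the floxed exons. Xist, the noncoding RNA that coats the silenced X chromosome of females, had 6 counts in all in KO tumoroids and 858 to 1483 CPM in WT tumoroids, and the Y-linked Ddx3y had 34.5 to 58.1 CPM in KO tumoroids and no count in WT tumoroids, so genotype and sex cannot be told apart. Mitochondrial transcripts took 2.15 to 3.46% of counts in KO tumoroids and 6.18 to 7.58% in WT tumoroids. Knock-out replicate 2 stood apart from the other knock-out libraries. Relative to their mean, its median log2 level was 0.22 for genes with under 2000 bases of exon and -0.18 for genes with over 6000 bases. Of 12 epithelial markers, 4 were higher and 7 lower in KO tumoroids (all genes tested, 30.4% and 27.0%). Their summed level was 10873 to 12701 CPM in KO tumoroids and 8698 to 9394 CPM in WT tumoroids, mostly from the keratin genes Krt8, Krt18 and Krt19, which were higher. Krt20 was also higher, 12.6-fold, at 24.5 ± 4.39 CPM in KO tumoroids and 1.84 ± 0.963 CPM in WT tumoroids. Epcam was 2.22-fold lower, Vil1 1.85-fold lower and the intestinal homeobox gene Cdx2 9.39-fold lower, and Cdx1 had no count in KO tumoroids. Of 13 fibroblast markers, 11 averaged under 1 CPM in both genotypes and 6 (Col3a1, Pdgfrb, Dcn, Lum, Thy1 and Dpt) had no count in any library. Col6a1, at 15.8 ± 1.47 CPM in KO tumoroids and no count in WT tumoroids, made up most of the summed level of 17.0 to 18.5 CPM in KO tumoroids, against 0.436 to 0.536 CPM in WT tumoroids. The 8 immune markers summed to 23.1 to 23.8 CPM in KO tumoroids and 3.79 to 6.98 CPM in WT tumoroids. Most of this came from Csf1r and Cd68, and Cd3e and Adgre1 were at 0 throughout. Of the 8, 3 passed the test as higher and 0 as lower (all genes tested, 30.4% and 27.0%). Itgam and Lyz2, with too few counts to be tested, went the other way. Itgam averaged 0.0867 CPM in KO tumoroids and 0.620 CPM in WT tumoroids. Lyz2 had no count in KO tumoroids and averaged 0.217 CPM in WT tumoroids. The 6 endothelial markers summed to 0.678 to 1.23 CPM in KO tumoroids and 17.6 to 23.3 CPM in WT tumoroids, where Tek and Vwf made up most of it, Pecam1 and Cdh5 averaged 0.0808 and 0.0495 CPM, and Kdr and Emcn had no count. The 6 smooth muscle markers summed to 0.112 to 0.316 CPM in KO tumoroids and 9.25 to 18.1 CPM in WT tumoroids, where Acta2 made up most of it at 12.5 ± 4.73 CPM, and Cnn1 and Myocd had no count. The part of these cell types in the results below was not tested. In such bulk libraries, fewer cells of a type and less RNA per cell cannot be told apart.

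Genes of secreted TGF-beta, activin and BMP ligands, of latency proteins and of intracellular brakes were mostly higher in KO tumoroids, receptor genes went both ways with 4 of 8 passing the test, and target genes split. Of the 44 genes, 36 passed the filter on low counts. Of these 36, 22 were higher and 6 were lower in KO tumoroids at an adjusted p under 0.05, and 8 did not pass (edgeR quasi-likelihood test, Benjamini-Hochberg adjusted over all 13759 genes tested). Without KO replicate 2, 23 were higher and 6 lower. Over all genes tested, 30.4% were higher and 27.0% lower at this threshold, 57.4% in either direction. At least 2-fold differences were found for 17 genes that were higher and 4 that were lower, against 15.2% and 9.83% of all genes tested. The median log2 fold change was 0.80 for the 36 genes and 0.00 for all genes tested. The genotypes did not overlap for 27 of the 36, and for 63.1% of all genes tested. A gene counted in 1 genotype alone can pass the filter through that genotype, so these counts describe the genes tested and not all 44.

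**Figure D1:**
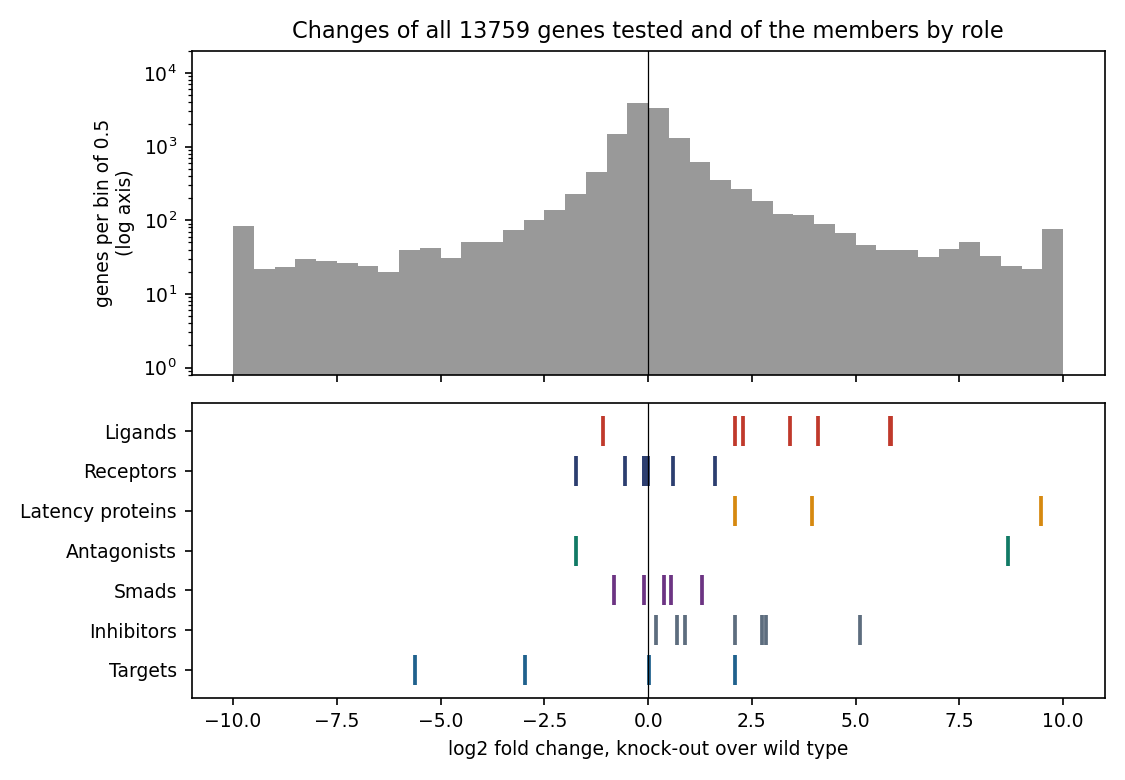
Upper panel, number of genes tested per bin of 0.5 in log2 fold change, knock-out over wild type, on a log axis, with changes beyond 10 in the end bins. Lower panel, 1 tick for each of the 36 pathway genes tested, by role. Ligand, latency protein and inhibitor ticks lie mostly to the right of 0, receptor ticks lie between -1.74 and 1.61, and targets lie on both sides.

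All 3 TGF-beta ligand genes were higher in KO tumoroids (all genes tested, 30.4%). Tgfb1, the most widely studied of the 3 isoforms, had 11.4, 15.3 and 11.0 CPM in KO tumoroids, against 0.905, 0.436 and 0.743 CPM in WT tumoroids, a 17.2-fold difference (log2 fold change 4.10 ± 0.41 SE, edgeR adjusted p = 1.8e-07). Tgfb2, an isoform with roles in development of heart and epithelium, had 15.2, 16.7 and 19.1 CPM in KO tumoroids and 0.235, 0.533 and 0.186 CPM in WT tumoroids, 56.3-fold higher (adjusted p = 7.4e-09). Tgfb3 was at 20.2, 16.8 and 14.95 CPM in KO tumoroids and at 2.51, 5.23 and 3.34 CPM in WT tumoroids, 4.87-fold higher (adjusted p = 3.8e-06). No knock-out library overlapped a wild-type library for any of the 3 (no overlap in 63.1% of all genes tested). Tgfb3 shares its position with Ttll5 on the opposite strand, whose log2 fold change was -0.06, and the strand setting of the counting is not given. Per kilobase of exon, mean levels in KO tumoroids were 5.12 ± 0.79 RPKM for Tgfb3, 2.94 ± 0.35 for Tgfb2 and 2.49 ± 0.47 for Tgfb1 (SD, n = 3). The ranges of 1 SD around Tgfb2 and Tgfb1 overlapped. In the wild type the levels were 1.09 ± 0.41 RPKM for Tgfb3, 0.138 ± 0.047 for Tgfb1 and 0.0549 ± 0.032 for Tgfb2, so Tgfb3 was the highest of the 3 in both genotypes.

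Activin A is a dimer of the inhibin beta-A chain, which Inhba encodes. Inhba had 41.5, 14.5 and 51.6 CPM in KO tumoroids and 0.335, 1.55 and 0.223 CPM in WT tumoroids, 57.6-fold higher (log2 fold change 5.85 ± 1.02 SE, edgeR adjusted p = 6.6e-06). Every knock-out library lay above every wild-type library, but the lowest knock-out value, that of replicate 2, was 0.311 of the mean of the other knock-out libraries. The difference was 126-fold without WT replicate 2. Inhba lies at chr13:16011851-16031621 (plus strand) in GRCm38 (GENCODE M21), as whole-gene bounds. Inhbb, the gene of the beta-B chain, had 5 counts in all in KO tumoroids and none in WT tumoroids, and was not tested.

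Among BMP ligand genes, Bmp4 and Bmp7 were higher in KO tumoroids and Bmp2 did not pass the test. Bmp4, in the intestine mainly a product of the mesenchyme, had 8.21, 9.70 and 7.98 CPM in KO tumoroids and 0.838, 1.26 and 0.409 CPM in WT tumoroids, 10.7-fold higher (edgeR adjusted p = 1.1e-06). Bmp7 had 21.4, 17.2 and 20.1 CPM in KO tumoroids and 4.22, 4.70 and 4.90 CPM in WT tumoroids, 4.26-fold higher (adjusted p = 3.7e-07). Both genes had genotypes without overlap (63.1% of all genes tested). Bmp2 was low throughout, with 0.284, 0.150 and 0.258 CPM in KO tumoroids and 0.536, 0.581 and 0.409 CPM in WT tumoroids (adjusted p = 0.13). Of the 26 other ligand and co-ligand genes of the family, 7 passed the filter. Of these 7, 5 were higher and 1 was lower (all genes tested, 30.4% and 27.0%). Bmp1, which despite its name encodes a metalloprotease that cleaves procollagens and the BMP antagonist chordin, was 8.97-fold higher at 61.4 ± 3.75 CPM in KO tumoroids, against 6.95 ± 1.29 CPM in WT tumoroids. Bmp8a was 7.09-fold higher, with reads that could be split with its near-identical neighbour Bmp8b. Gdf15, a stress-induced ligand, was 1.65-fold higher and Bmp3, an atypical member that opposes other BMPs, was 5.40-fold lower. Bmp3 lies on chromosome 5, where the median log2 fold change over 950 genes tested was 0.39, against -0.02 on the other autosomes.

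**Figure D2:**
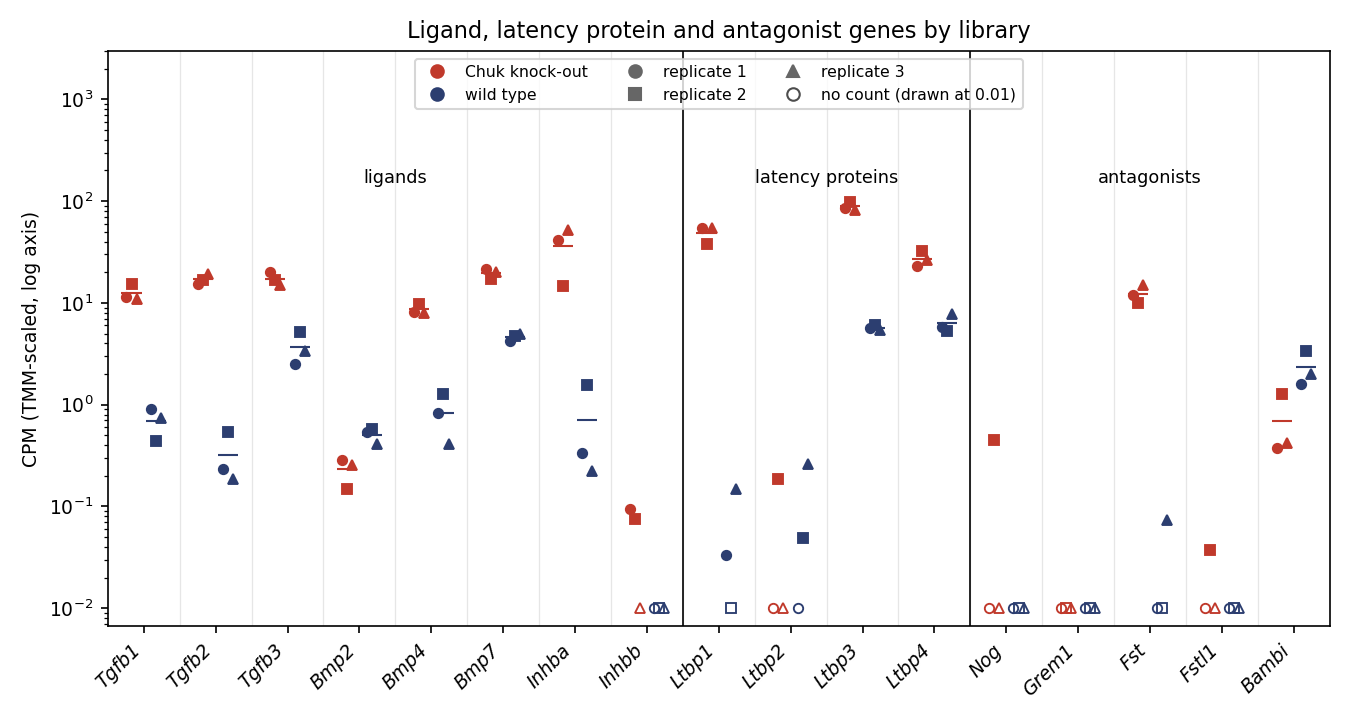
CPM per library (log axis) of the ligand, latency protein and antagonist genes, with knock-out libraries on the left of each gene and wild-type libraries on the right. Bars are means of 3 libraries where all have counts, and open symbols mark libraries with no count. Knock-out values lie above wild-type values without overlap for Tgfb1, Tgfb2, Tgfb3, Bmp4, Bmp7, Inhba, Ltbp1, Ltbp3, Ltbp4 and Fst, and below them for Bambi and Bmp2.

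Latent TGF-beta binding proteins attach the latent complex to the extracellular matrix. Of their 4 genes, 3 were tested, and these 3 were higher in KO tumoroids (all genes tested, 30.4%). Ltbp1 had 54.5, 38.3 and 53.9 CPM in KO tumoroids and 0.0335, 0 and 0.149 CPM in WT tumoroids, which is 5 wild-type counts in all (fitted difference 710-fold, edgeR adjusted p = 1.3e-11). Without WT replicate 3, where 4 of those 5 counts lie, the fitted difference was 2021-fold. Ltbp3 had 86.0, 97.6 and 82.1 CPM in KO tumoroids and 5.70, 6.11 and 5.39 CPM in WT tumoroids, 15.5-fold higher (log2 fold change 3.95 ± 0.13 SE, adjusted p = 9.0e-11). Ltbp4 had 23.2, 32.4 and 26.2 CPM in KO tumoroids and 5.76, 5.33 and 7.77 CPM in WT tumoroids, 4.29-fold higher (adjusted p = 9.0e-07). Ltbp2 was not tested, at 5 counts in all in KO tumoroids and 8 in WT tumoroids. Per kilobase of exon, the order in KO tumoroids was Ltbp3 (9.77 ± 0.89 RPKM), Ltbp1 (4.57 ± 0.86) and Ltbp4 (4.22 ± 0.73), with overlapping ranges of 1 SD around Ltbp1 and Ltbp4.

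Genes that process or release latent TGF-beta were counted as a further list of 13, of which 9 were tested. Of these 9, 8 were higher in KO tumoroids and 0 were lower (all genes tested, 30.4% and 27.0%). Plau and Plat encode the plasminogen activators, proteases upstream of plasmin, which can release TGF-beta. Plau had 136, 137 and 150 CPM in KO tumoroids and 7.40, 8.04 and 7.54 CPM in WT tumoroids, 18.5-fold higher (edgeR adjusted p = 1.2e-11). Plat was 17.6-fold higher at 131 ± 8.81 CPM in KO tumoroids and 7.48 ± 0.825 CPM in WT tumoroids (SD, n = 3 each). Itgb6, which forms with Itgav the epithelial integrin that activates latent TGF-beta, was 3.05-fold higher, and Pcsk6, a proprotein convertase, was 3.09-fold higher. Nrros, a myeloid protein that tethers latent TGF-beta, was at 0.832 ± 0.552 CPM in KO tumoroids and 0.919 ± 0.625 CPM in WT tumoroids and did not pass (adjusted p = 0.81). Itgb8 and Lrrc32, both part of other activation routes, had too few counts to be tested.

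Of the 5 antagonist genes of the set, Fst and Bambi had enough counts to be tested. Fst encodes follistatin, a secreted protein that binds and neutralises activin. It had 11.9, 9.89 and 15.1 CPM in KO tumoroids and 0, 0 and 0.0743 CPM in WT tumoroids (edgeR adjusted p = 4.0e-08). With 2 wild-type counts in all, the ratio of pooled levels was 481, with an exact 95% counting interval of 133 to 3979. Fst and Inhba, the gene of its ligand, were thus both higher in KO tumoroids, at 2.69 ± 0.58 and 5.61 ± 3.00 RPKM, against 0.00540 ± 0.0094 and 0.110 ± 0.12 RPKM in WT tumoroids. Bambi, a decoy receptor without a kinase domain, had 0.379, 1.27 and 0.420 CPM in KO tumoroids and 1.61, 3.34 and 2.01 CPM in WT tumoroids, 3.34-fold lower (adjusted p = 0.0083). The fall was 5.61-fold without KO replicate 2, which had the highest knock-out value. Nog had 12 counts, all in KO replicate 2, and none in WT tumoroids. Grem1, an antagonist made by intestinal stroma, had no count in any library, which allows up to 0.0336 CPM in KO tumoroids and 0.0388 CPM in WT tumoroids (3 counts over pooled libraries, counting error only). Fstl1 had 1 count in all.

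Among 17 further antagonist genes, 9 were tested, 8 were higher in KO tumoroids and 0 were lower (all genes tested, 30.4% and 27.0%). Nbl1, a secreted BMP antagonist of the DAN family, had 120, 136 and 122 CPM in KO tumoroids and 4.09, 4.22 and 3.68 CPM in WT tumoroids, 31.6-fold higher (edgeR adjusted p = 1.0e-11). Htra1, a secreted protease that can inhibit the family, had 29.6, 29.0 and 30.5 CPM in KO tumoroids and 0, 0 and 0.372 CPM in WT tumoroids. Its fitted difference was 222-fold, 138-fold without WT replicate 1 and 6646-fold without WT replicate 3, which holds its wild-type counts. Crim1 and Twsg1, both secreted or membrane proteins that bind BMPs, were 2.34-fold and 1.98-fold higher.

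Of the 8 receptor genes tested, 2 were higher and 2 were lower in KO tumoroids. These 4 of 8 lay near the 57.4% called over all genes tested. Acvr1b, the type I receptor for activin also called ALK4, had 32.7, 24.8 and 31.4 CPM in KO tumoroids and 109, 93.1 and 96.5 CPM in WT tumoroids, 3.35-fold lower (log2 fold change -1.74 ± 0.11 SE, edgeR adjusted p = 6.3e-08). Acvr1, a type I receptor of BMPs also called ALK2, had 55.0, 47.3 and 53.9 CPM in KO tumoroids and 18.2, 15.9 and 17.0 CPM in WT tumoroids, 3.04-fold higher (log2 fold change 1.61 ± 0.11 SE, adjusted p = 9.8e-08). In both genes the genotypes did not overlap (63.1% of all genes tested). Acvr1b lies at chr15:101174067-101213684 (plus strand) and Acvr1 at chr2:58388644-58567157 (minus strand). Acvr2a, a type II receptor for activins and BMPs, was 1.48-fold lower, with 34.2, 31.0 and 33.0 CPM in KO tumoroids and 51.3, 48.1 and 46.0 CPM in WT tumoroids (adjusted p = 2.6e-04). Orc4 overlaps it on the opposite strand, with a log2 fold change of 0.05. Bmpr2, the type II receptor of BMPs, had 112, 66.1 and 104 CPM in KO tumoroids and 76.5, 60.0 and 49.9 CPM in WT tumoroids. Its 1.51-fold difference passed with overlapping genotypes (adjusted p = 0.016), and did not pass without KO replicate 1 (adjusted p = 0.070), KO replicate 3 (0.055), WT replicate 2 (0.066) or WT replicate 3 (0.072).

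Both TGF-beta receptor genes and Bmpr1a did not pass the test. Tgfbr2, the type II receptor that binds TGF-beta, had 431, 380 and 438 CPM in KO tumoroids and 437, 422 and 437 CPM in WT tumoroids (log2 fold change -0.05 ± 0.08 SE, edgeR adjusted p = 0.58). Tgfbr1, its type I partner, had 74.7, 42.9 and 66.4 CPM in KO tumoroids and 71.0, 66.4 and 61.2 CPM in WT tumoroids (-0.11 ± 0.16, adjusted p = 0.61). Bmpr1a, a type I receptor of BMPs, was at 168 ± 19.8 CPM in KO tumoroids and 168 ± 6.87 CPM in WT tumoroids (adjusted p = 0.99), and Acvr2b at 5.70 ± 1.83 CPM in KO tumoroids and 6.10 ± 0.594 CPM in WT tumoroids (adjusted p = 0.76). Knock-out replicate 2 was the lowest knock-out library for each of these genes. Tgfbr3, the co-receptor betaglycan, was not tested, with no count in KO tumoroids and 7 in WT tumoroids. Per kilobase of exon, Tgfbr2 was the highest receptor gene in both genotypes, at 50.9 ± 3.8 RPKM in KO tumoroids and 52.8 ± 1.1 RPKM in WT tumoroids, followed by Bmpr1a at 26.5 ± 3.1 RPKM in KO tumoroids and 26.5 ± 1.1 RPKM in WT tumoroids. The next places were held by Acvr1 (10.8 ± 0.86 RPKM) and Tgfbr1 (9.39 ± 2.5), with overlapping ranges of 1 SD in KO tumoroids, and by Acvr1b (22.5 ± 1.9), above Tgfbr1 (10.1 ± 0.75) in WT tumoroids.

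Of 10 further receptor and co-receptor genes, 6 were tested. In KO tumoroids, 5 were higher and 0 were lower (all genes tested, 30.4% and 27.0%). Cd109, a TGF-beta co-receptor that limits the signal, had 75.7, 64.5 and 83.3 CPM in KO tumoroids and 0.201, 0 and 0.149 CPM in WT tumoroids, a fitted difference of 558-fold that was 840-fold without WT replicate 1 (edgeR adjusted p = 7.4e-12). Bmpr1b, a type I BMP receptor, had 5.24, 2.47 and 5.10 CPM in KO tumoroids and no count in WT tumoroids, at least 113-fold higher against 3 counts over the pooled wild-type libraries. Neo1, a receptor for repulsive guidance molecules that take part in BMP signalling, was 1.55-fold higher at 193 ± 27.1 CPM in KO tumoroids and 125 ± 2.35 CPM in WT tumoroids. Rgma, one of these molecules, was 7.80-fold higher at 1.02 ± 0.386 CPM in KO tumoroids and 0.157 ± 0.243 CPM in WT tumoroids, 47.6-fold without WT replicate 2 and 5.14-fold without WT replicate 3.

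Among the Smad genes, Smad3, Smad2 and Smad5 were higher in KO tumoroids, Smad1 was lower, and Smad4 did not pass the test. Smad3 had 238, 193 and 241 CPM in KO tumoroids and 88.3, 95.5 and 88.8 CPM in WT tumoroids, 2.47-fold higher (log2 fold change 1.30 ± 0.09 SE, edgeR adjusted p = 1.8e-07). Smad2, the other mediator of TGF-beta and activin, was 1.46-fold higher, with 99.5, 90.3 and 96.4 CPM in KO tumoroids and 67.2, 65.6 and 63.8 CPM in WT tumoroids (adjusted p = 9.2e-05). Smad1, a mediator of BMP signals, had 25.3, 21.3 and 20.1 CPM in KO tumoroids and 42.0, 40.2 and 35.4 CPM in WT tumoroids, 1.76-fold lower (adjusted p = 9.3e-05). The genotypes did not overlap for these 3 genes (no overlap in 63.1% of all genes tested). Smad5, which shares the role of Smad1, was 1.30-fold higher with overlapping genotypes (adjusted p = 0.016), and its call was lost without KO replicate 1 (adjusted p = 0.074), KO replicate 3 (0.050), WT replicate 2 (0.059) or WT replicate 3 (0.075). Smad4, the common partner, had 133, 123 and 142 CPM in KO tumoroids and 141, 141 and 141 CPM in WT tumoroids (log2 fold change -0.09 ± 0.08 SE, adjusted p = 0.35). Smad9 was not tested, with 3 counts in KO tumoroids and 19 in WT tumoroids. On the per-length scale the mediators of TGF-beta and activin stood at 40.4 ± 4.8 RPKM for Smad3 and 10.9 ± 0.53 RPKM for Smad2 in KO tumoroids, against 16.4 ± 0.72 and 7.46 ± 0.20 RPKM in WT tumoroids. The gene of Smad3 lies at chr9:63646767-63757994 (minus strand). Those of BMP stood at 11.1 ± 1.4 RPKM for Smad5 and 3.55 ± 0.43 RPKM for Smad1 in KO tumoroids, against 8.58 ± 1.1 and 6.26 ± 0.54 RPKM in WT tumoroids.

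**Figure D3:**
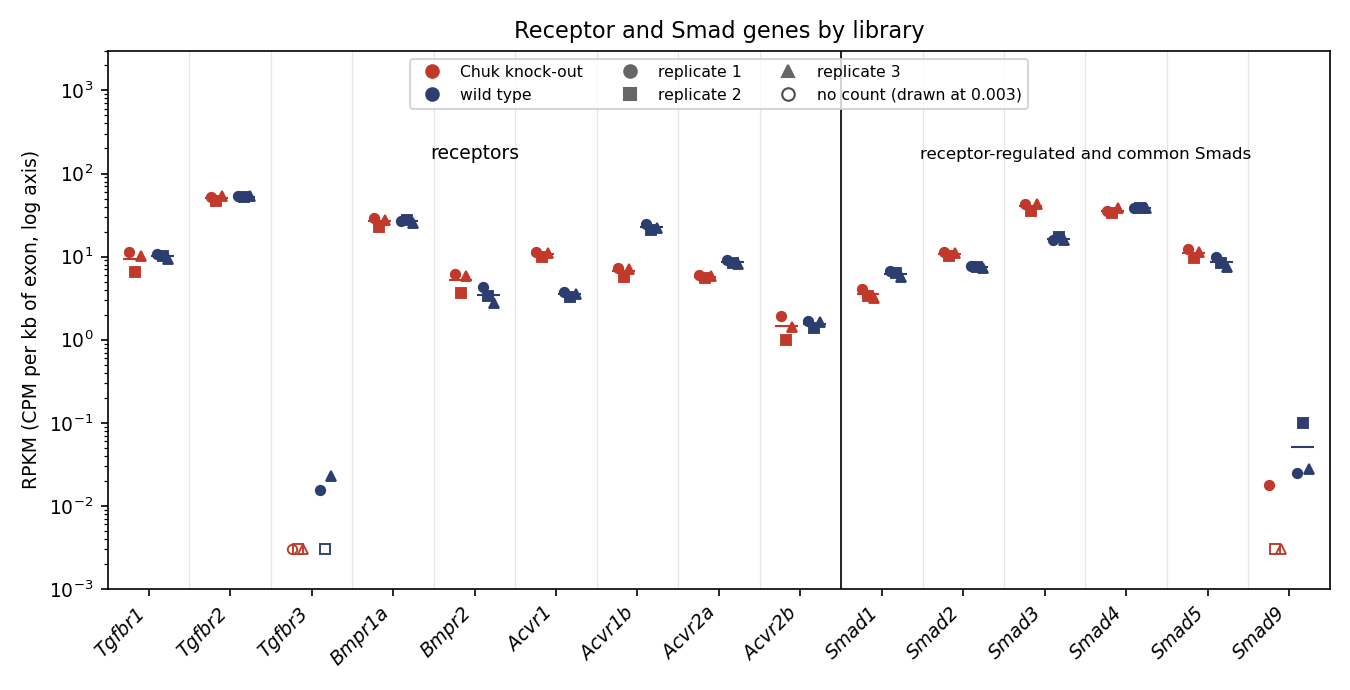
Levels per library of receptor and Smad genes as RPKM (CPM per kilobase of exon, log axis), knock-out libraries on the left of each gene and wild-type libraries on the right. Bars are means of 3 libraries where all have counts, and open symbols mark no count. Tgfbr2, Bmpr1a and Smad4 lie at nearly the same height in both genotypes, while Acvr1 and Smad3 are higher and Acvr1b and Smad1 lower in KO tumoroids, without overlap.

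Of the 7 genes of intracellular inhibitors, 6 were higher in KO tumoroids (all genes tested, 30.4%) and Smurf2 did not pass. Pmepa1, a membrane protein induced by TGF-beta that sequesters Smad2 and Smad3, had 338, 333 and 365 CPM in KO tumoroids and 51.4, 57.3 and 45.4 CPM in WT tumoroids, 6.73-fold higher (log2 fold change 2.75 ± 0.09 SE, edgeR adjusted p = 2.4e-10). The gene lies at chr2:173224458-173276533 (minus strand). Smad7, the inhibitory Smad of both branches, had 26.3, 24.9 and 31.3 CPM in KO tumoroids and 4.32, 4.12 and 3.05 CPM in WT tumoroids, 7.20-fold higher (adjusted p = 3.8e-08). Smad6, which chiefly blocks the BMP branch, had 2.65, 2.77 and 3.00 CPM in KO tumoroids and 0.0335, 0 and 0.186 CPM in WT tumoroids, which is 6 wild-type counts (fitted difference 34.3-fold, adjusted p = 2.4e-06). That difference was 116-fold without WT replicate 3. Smurf1, a ubiquitin ligase for Smads and receptors, had 324, 257 and 330 CPM in KO tumoroids and 72.0, 72.0 and 69.3 CPM in WT tumoroids, 4.27-fold higher (adjusted p = 4.1e-09). It lies on chromosome 5, whose median log2 fold change of 0.39 compares with 2.10 ± 0.10 SE for Smurf1. The corepressor genes Ski and Skil were 1.62-fold and 1.87-fold higher (adjusted p = 1.8e-05 and 0.0024), Skil with 64.0, 47.2 and 73.2 CPM in KO tumoroids and 36.4, 41.3 and 22.0 CPM in WT tumoroids. None of these 6 genes had overlapping genotypes (no overlap in 63.1% of all genes tested). Smurf2 had 98.4, 73.6 and 86.8 CPM in KO tumoroids and 81.8, 73.8 and 73.4 CPM in WT tumoroids (adjusted p = 0.18), and it passed without KO replicate 2 (adjusted p = 0.016).

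A list of 26 further regulators held 24 tested genes, of which 9 were higher, 4 were lower and 11 did not pass. With 13 of the 24 called, the list lay near the 57.4% of all genes tested. Tgif1 and Tgif2 encode related homeodomain corepressors of Smad2 and Smad3 and differed in opposite directions. Tgif1 was 1.46-fold higher, at 179 ± 7.07 CPM in KO tumoroids and 122 ± 7.36 CPM in WT tumoroids, and Tgif2 was 4.97-fold lower, at 1.28 ± 0.166 CPM in KO tumoroids and 6.37 ± 0.125 CPM in WT tumoroids (edgeR adjusted p = 6.4e-05 and 4.9e-06). Nedd4l, a ubiquitin ligase for activated Smad2 and Smad3, was 1.70-fold lower, and Strap, a binding partner of Smad7, was 1.41-fold lower.

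The target genes of the set went in different directions within 1 family. The Id genes encode helix-loop-helix proteins that lack a DNA-binding region and hold back bHLH transcription factors, and BMP signalling induces them in many cell types. Id2 had 406, 416 and 393 CPM in KO tumoroids and 95.7, 97.6 and 91.7 CPM in WT tumoroids, 4.27-fold higher (log2 fold change 2.09 ± 0.07 SE, edgeR adjusted p = 2.3e-10). Id3 had 2.65, 5.28 and 3.52 CPM in KO tumoroids and 28.8, 27.0 and 31.7 CPM in WT tumoroids, 7.78-fold lower (log2 fold change -2.96 ± 0.21 SE, adjusted p = 6.8e-08). Id1 had 34.6, 52.8 and 37.1 CPM in KO tumoroids and 43.4, 38.8 and 39.7 CPM in WT tumoroids (log2 fold change 0.02 ± 0.15 SE, adjusted p = 0.91). The genotypes were apart for Id2 and Id3 and overlapped for Id1, where KO replicate 2 was the highest of the 6 libraries. Id4 was not tested, with 3 counts in KO tumoroids and 13 in WT tumoroids. Per kilobase of exon, Id2 stood at 166 ± 4.8 RPKM, Id1 at 35.8 ± 8.5 and Id3 at 2.13 ± 0.75 in KO tumoroids. In the wild type, Id2 at 39.0 ± 1.2 RPKM and Id1 at 35.0 ± 2.1 lay closest together, and Id3 was at 16.3 ± 1.3. Tgfbi, an extracellular matrix protein named for its induction by TGF-beta, had 0.0948, 0 and 0.0323 CPM in KO tumoroids and 2.65, 2.33 and 2.23 CPM in WT tumoroids. That is 4 counts in KO tumoroids and 187 in WT tumoroids, a fitted 49.1-fold fall (adjusted p = 1.2e-06), 110-fold without KO replicate 1, which holds 3 of the 4 counts.

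**Figure D4:**
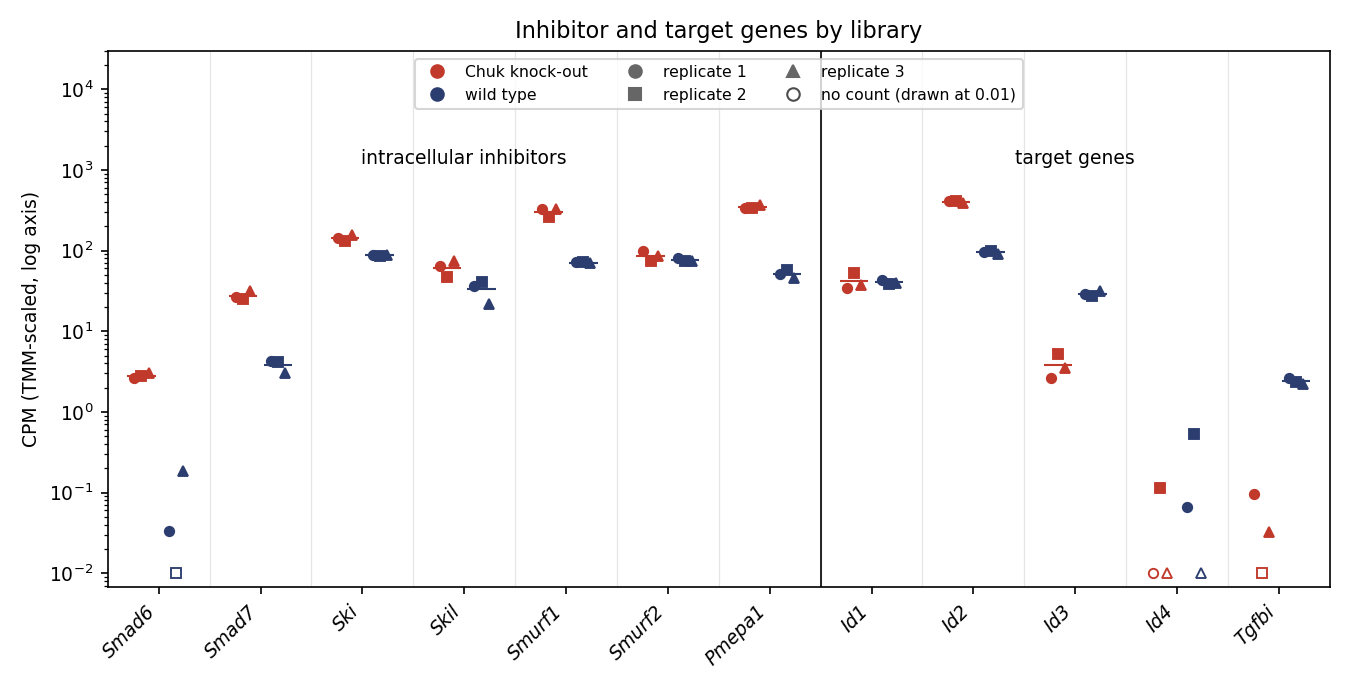
CPM per library (log axis) of the inhibitor and target genes, knock-out libraries on the left of each gene and wild-type libraries on the right. Bars are means of 3 libraries where all have counts, and open symbols mark no count. Smad6, Smad7, Smurf1, Pmepa1 and Id2 are higher and Id3 and Tgfbi lower in KO tumoroids without overlap, and Id1 overlaps.

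Targets outside the set were counted in lists for each branch. Of 18 genes commonly induced by TGF-beta, 13 were tested, 10 were higher and 2 lower in KO tumoroids (all genes tested, 30.4% and 27.0%). Ccn2, a matricellular protein also induced by Yap, was 5.84-fold higher at 137 ± 5.87 CPM in KO tumoroids and 23.6 ± 2.66 CPM in WT tumoroids (edgeR adjusted p = 6.2e-10), and Tsc22d1 was 4.27-fold higher. Igfbp3 had 85.5, 76.9 and 92.2 CPM in KO tumoroids and 0.670, 0.242 and 0.595 CPM in WT tumoroids. The 2 that were lower were Col4a1 (1.87-fold) and Col4a2 (1.67-fold), neighbouring genes of basement membrane collagen. Snai1, Snai2, Zeb1 and Zeb2, transcription factors of epithelial-mesenchymal transition, had too few counts to be tested.

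Of 12 genes commonly induced by BMP, 6 were tested, 4 were lower and 2 higher in KO tumoroids (all genes tested, 27.0% and 30.4%). Atoh8, a bHLH factor, had 0.537, 0.936 and 0.0969 CPM in KO tumoroids and 6.06, 6.93 and 6.91 CPM in WT tumoroids, 13.0-fold lower (edgeR adjusted p = 4.1e-06) and 20.8-fold lower without KO replicate 2. Msx1, a homeobox gene, had 0.0316, 0.112 and 0 CPM in KO tumoroids and 1.81, 1.79 and 1.45 CPM in WT tumoroids, a fitted 34.2-fold fall that was 83.8-fold without KO replicate 2. Prdm16 was 23.1-fold lower at 2.08 ± 1.38 CPM in KO tumoroids and 47.5 ± 7.29 CPM in WT tumoroids, and Tbx3 was 1.49-fold lower. Msx1 and Tbx3 lie on chromosome 5, where the median log2 fold change was 0.39. The 2 that were higher, Gata3 and Dlx3, averaged 1.05 ± 0.576 and 0.772 ± 0.478 CPM in KO tumoroids. Like Id3 and unlike Id2, Atoh8 and Msx1 were thus lower in KO tumoroids, while Smad6 and Smad7, which BMP also induces, were higher.

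**Figure D5:**
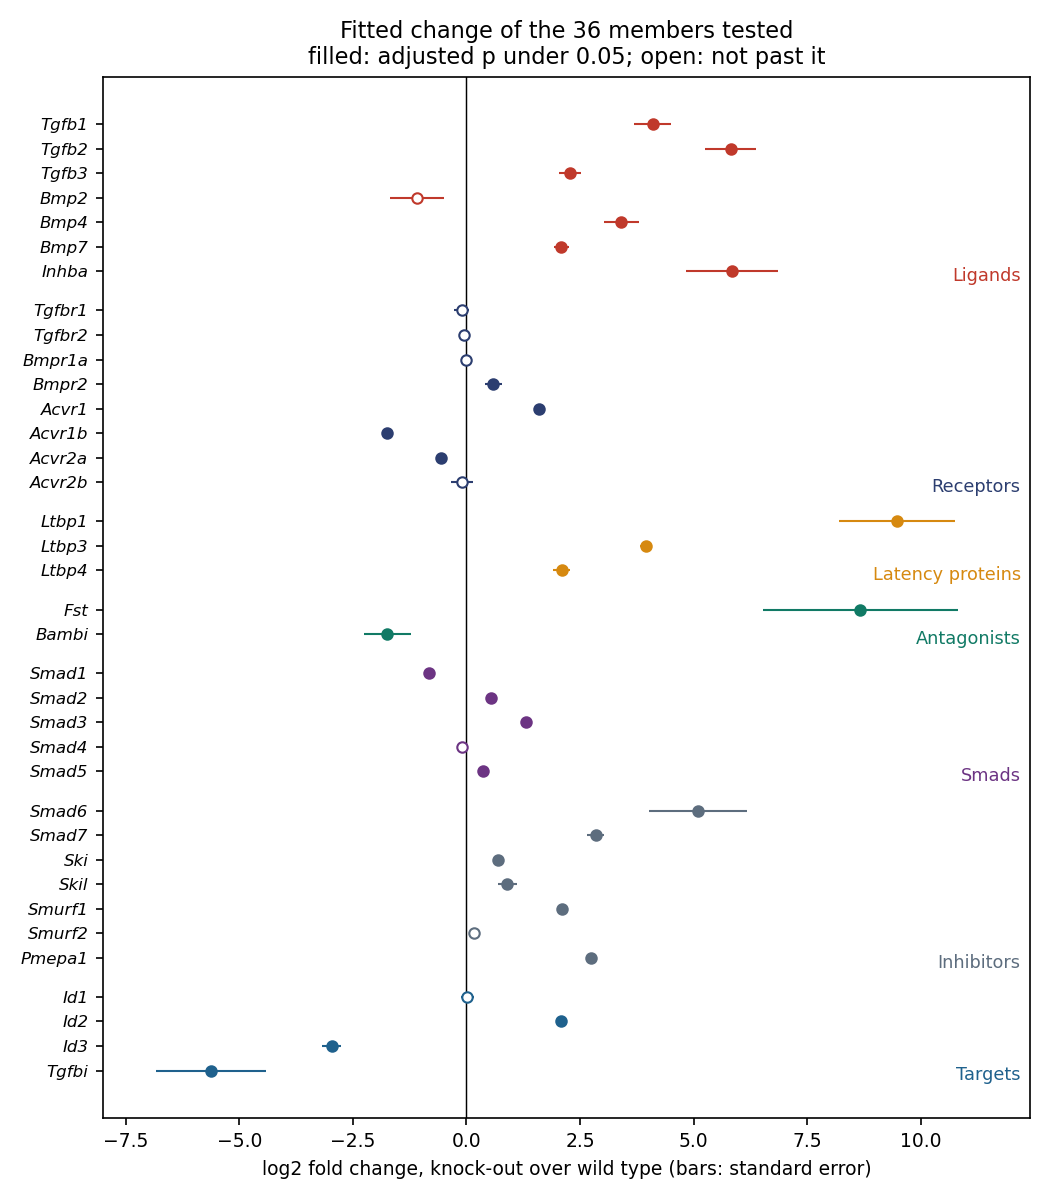
Fitted log2 fold change, knock-out over wild type, of the 36 genes tested, by role, with bars of 1 standard error. Filled points passed an adjusted p of 0.05 and open points did not. The largest errors belong to Fst, Ltbp1, Tgfbi and Smad6, which had 2 to 6 counts in 1 genotype.

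Proximal promoter sequences are shown for 5 genes, because the Id genes and Tgfbi differed in direction and Tgfb2 and Ltbp3 were higher. They were picked after their matches were seen. Each is the 250 bases before the RefSeq start in GRCm38.p6, 5′ to 3′ on the strand of the gene. Capitals mark CAGAC or its complement GTCTG, the box that Smad3 and Smad4 can bind, and GGCGCC, a GC-rich box bound by Smad1, Smad5 and Smad4. Both motifs were searched on both strands, and no match of one overlapped the other in these 5.
Tgfb2: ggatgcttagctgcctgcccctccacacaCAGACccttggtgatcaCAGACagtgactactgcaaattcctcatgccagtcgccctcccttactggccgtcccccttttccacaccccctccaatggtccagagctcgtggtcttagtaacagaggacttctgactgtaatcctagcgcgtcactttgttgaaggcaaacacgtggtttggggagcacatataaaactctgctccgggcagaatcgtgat
Ltbp3: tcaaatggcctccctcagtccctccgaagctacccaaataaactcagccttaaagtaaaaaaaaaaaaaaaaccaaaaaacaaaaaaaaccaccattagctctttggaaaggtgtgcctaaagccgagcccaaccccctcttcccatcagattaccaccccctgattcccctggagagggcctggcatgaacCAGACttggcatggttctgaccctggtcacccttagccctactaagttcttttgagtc
Id2: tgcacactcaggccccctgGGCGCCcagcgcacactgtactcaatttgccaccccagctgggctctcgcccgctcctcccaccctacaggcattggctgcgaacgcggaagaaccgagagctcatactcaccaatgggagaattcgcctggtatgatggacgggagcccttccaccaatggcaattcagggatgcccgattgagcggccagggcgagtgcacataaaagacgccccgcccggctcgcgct
Id3: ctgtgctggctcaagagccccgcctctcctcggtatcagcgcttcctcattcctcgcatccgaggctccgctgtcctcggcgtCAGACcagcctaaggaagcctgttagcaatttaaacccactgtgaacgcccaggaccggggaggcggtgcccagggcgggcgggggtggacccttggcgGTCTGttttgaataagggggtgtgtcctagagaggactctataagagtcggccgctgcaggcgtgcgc
Tgfbi: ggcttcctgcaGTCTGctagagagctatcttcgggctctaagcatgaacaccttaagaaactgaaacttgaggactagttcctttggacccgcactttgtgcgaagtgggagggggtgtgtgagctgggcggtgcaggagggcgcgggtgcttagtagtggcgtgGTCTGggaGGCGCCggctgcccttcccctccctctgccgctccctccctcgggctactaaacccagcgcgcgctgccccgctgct
These windows lie at chr1:186705990-186706239 (minus strand) for Tgfb2, chr19:5740650-5740899 (plus) for Ltbp3, chr12:25096093-25096342 (minus) for Id2, chr4:136143572-136143821 (plus) for Id3 and chr13:56609336-56609585 (plus) for Tgfbi. By the whole-gene bounds of GENCODE M21, the Id2 window (gene end 25097140) and the Id3 window (gene start 136143497) lie inside the gene. The Tgfbi window runs past the gene start at 56609523. These windows are thus upstream of the RefSeq start only. CAGAC was found at 2 places for Tgfb2, which was higher in KO tumoroids, and at 2 places for Id3 and for Tgfbi, which were lower. GGCGCC was found once for Id2, which was higher, and once for Tgfbi. Ltbp3, which was higher, held CAGAC once.

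Windows were found for 31 of the 44 genes, 37 in all because some genes have several starts. CAGAC was present in 15 of the 37 (40.5%), against 42.2% of 32841 windows of all genes and 40.5% of those of genes tested. GGCGCC was present in 13 of the 37 (35.1%), against 9.59% of all windows and 16.2% of the 12992 windows of genes tested here. The median GC content was 68.0% in the 37 windows, 59.6% in those of genes tested and 52.4% in all, so the windows of the set were richer in GC, and the part of base composition in the share with GGCGCC was not tested. TGANTCA, the AP-1 motif, also searched on both strands, was found in 0 of the 37 windows. It was present in 6.75% of all windows and 5.00% of those of genes tested. A match is only a description of letters, and its absence says nothing of the factor.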

How the data were processed

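Stranded polyA RNA libraries of 3 knock-out and 3 wild-type tumoroid cultures were used. The authors deposited raw read counts per gene for each library. Reads were aligned with STAR to GRCm38, per the submitters' processing notes, while the program that counted them, its strand setting and the gene annotation are unstated in the sources used here. Gene symbols and exon lengths were taken from GENCODE M21, which named 49326 of the 49585 identifiers, of which 26250 had no count in any library.

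The counts were analysed with edgeR 4.0.16 in R 4.3.3, after its expression filter (minimum count 10, minimum total 15) and TMM scaling. The quasi-likelihood test compared knock-out with wild type, and p-values were Benjamini-Hochberg adjusted over the 13759 genes tested at a threshold of 0.05. Standard errors come from the same fit. CPM are TMM-scaled, and RPKM are CPM per kilobase of exon. Intervals and floors (3 counts) are at 95% or cover counting error only. The steps were tested on simulated data. Alternatives used DESeq2 1.42.0, limma 3.58.1 voom, other scalings and filters, and each library left out.

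The genes and lists were chosen with earlier results of these data known. All 44 genes are given. Library values and a test are printed for those that passed at 2-fold or more and averaged 1 CPM or more in either genotype, and up to 4 genes with the smallest adjusted p are named per further list. Other genes named from those lists were chosen after their values were seen. For 3 list symbols, names were matched through RefSeq synonyms. Promoter sequences are from RefSeq (GRCm38.p6). Some items of the lists are not reported here.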

Additional observations from a re-analysis of the deposited data

How the results depend on the processing

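All 14 alternatives kept the counts of genes called within 1.5 times of those reported: 7019 to 8899 of the genes tested in all, 20 to 23 of the pathway genes higher and 6 lower in the knock-out, and 40 to 48 of the further pathway genes higher and 8 to 12 lower. Of the 36 pathway genes tested, 33 stayed on their side of the threshold in each alternative that could fit them. Bmp2 was not tested under the 1 CPM filter, nor Smurf1 without chromosome 5. Bmpr2 and Smad5 lost their calls when single libraries were left out, Smurf2 gained one without knock-out replicate 2, and the 28 genes called kept their direction. Of the 8 not called, 4 changed sign: Tgfbr1 (log2 fold change 0.065) and Acvr2b (0.070) without KO replicate 2, and Id1 and Bmpr1a, which lay near 0, in 3 and 10 alternatives. Libraries with the same replicate number did not deviate together (r = 0.039, -0.041 and -0.080). With 3 libraries per genotype and KO replicate 2 apart, this check cannot settle whether the numbers pair them. With the replicate block 7432 genes were called, 22 of the pathway genes higher and 6 lower. With DESeq2 the fitted fold change of Bmpr1b, which had no wild-type count, was 591, and with limma voom 212, so its size rests on the model. Inhbb, Tgfbr3, Ltbp2, Nog, Fstl1, Smad9 and Id4 had too few counts to be tested, and Grem1 had none in any library.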
